A study of Mus musculus with 6 samples.

Results

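The 10 genes described here encode proteins that neutrophils store in their granules: Elane, Mpo, Prtn3, Ctsg, Ltf, Camp, Ngp, Lcn2, Mmp8 and Retnlg. They were taken by symbol from the 32285 genes counted, and all 10 were found. Their UMIs (unique molecular identifiers, 1 for every RNA molecule captured) were followed in single cells of 6 mice, 1 mouse for each treatment, in cells gated as neutrophils by 8 markers that include no granule gene.

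The control mouse received solvent and control rat IgG. The others received 2DG (2-deoxy-D-glucose, a glucose analog that also disturbs N-glycan assembly), 2FF (a fluorinated fucose analog that blocks fucosylation), anti-PD-L1 (an antibody that blocks the immune checkpoint protein PD-L1), or the antibody together with either sugar analog. The last 2 (2DG plus anti-PD-L1, and the same antibody with 2FF) are called the 2DG combination and the 2FF combination below. By the study's methods, the mice were female C57BL/6 of 6–8 weeks that carried orthotopic tumors of KPCA, a mouse line of ovarian cancer that is proficient in homologous recombination, and were sacrificed on day 30. Anti-PD-L1 was given at 5 mg/kg 2 times a week for 3 weeks, 2DG and anti-PD-L1 started around day 9, 2DG and 2FF were given every 2 days, and in the 2FF treatment the tumor cells were also exposed to 2FF for 3 days before injection. The labels instead name lymph node, and the series text mentions aged animals, so the origin of the cells is not settled by the sources. The same control mouse and the same anti-PD-L1 mouse are the references for both sugar analogs.

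Neutrophils make granule proteins in waves while they mature in the bone marrow. Promyelocytes, the early dividing precursors, transcribe the proteases and the peroxidase of the azurophil (primary) granules. Myelocytes and metamyelocytes transcribe the proteins of the specific (secondary) granules, and later stages those of the gelatinase granules. Mature neutrophils keep the proteins but have lost most of these transcripts, so granule gene RNA outside the marrow is commonly read as a sign of young cells. The transcription factors PU.1 and C/EBP are textbook regulators of these genes.

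The azurophil group was Elane (neutrophil elastase), Mpo (myeloperoxidase), Prtn3 (proteinase 3) and Ctsg (cathepsin G). The specific group was Ltf (lactoferrin, which binds iron), Camp (the cathelicidin antimicrobial peptide), Ngp (neutrophilic granule protein), Lcn2 (lipocalin 2, which binds bacterial siderophores) and Mmp8 (neutrophil collagenase). Retnlg (resistin-like gamma) was kept apart, because it is a transcript of later neutrophils.

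In the GENCODE M21 annotation of GRCm38, the assembly that mm10 names, all 10 genes are protein-coding. Prtn3 (chr10:79874476-79883174) and Elane (chr10:79886247-79888215) lie on the plus strand 3072 bases apart. Camp (chr9:109847379-109849617, minus strand), Ngp (chr9:110419747-110423012, plus strand) and Ltf (chr9:111019271-111042767, plus strand) lie 570129 and 596258 bases apart on chromosome 9. Mpo overlaps the antisense gene Gm11505 and Prtn3 overlaps Plppr3, both on the opposite strand.

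Promoter windows from RefSeq (GRCm38.p6, 250 bases before to 50 after the start, 1 window for each of the 10 genes) were searched on both strands for 3 short motifs, and no match overlapped another. The letters AGGAAGT, a core bound by PU.1, occurred in all 4 azurophil windows, in 1 of the 5 specific windows and in 9.35% of 32851 windows of all genes. The letters TTGCNNAA, a C/EBP core, occurred in none of the azurophil windows, in 4 of the 5 specific windows (all but Camp), in the Retnlg window and in 10.8% of all windows. TGTGGT, a Runx core, occurred in 1 azurophil and 1 specific window and in 16.8% of all windows. The stretches around the PU.1 letters of the azurophil genes and around the C/EBP letters of 3 specific genes are shown because these letters were the most unequal between the groups. They are written 5′ to 3′ on the strand of the gene, with the PU.1 or C/EBP match in capitals (the match of Ltf lies on the other strand), and were cut to leave out annotated exons.
Elane, chr10:79886183-79886246, plus strand: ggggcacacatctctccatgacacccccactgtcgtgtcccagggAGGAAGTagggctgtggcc
Mpo, chr11:87793534-87793580, plus strand: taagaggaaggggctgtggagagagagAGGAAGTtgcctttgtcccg
Prtn3, chr10:79879528-79879613, plus strand: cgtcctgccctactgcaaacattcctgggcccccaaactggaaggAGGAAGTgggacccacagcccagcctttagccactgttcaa
Ctsg, chr14:56102729-56102824, minus strand: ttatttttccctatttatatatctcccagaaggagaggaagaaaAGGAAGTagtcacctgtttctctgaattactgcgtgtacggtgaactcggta
Ltf, chr9:111019172-111019269, plus strand: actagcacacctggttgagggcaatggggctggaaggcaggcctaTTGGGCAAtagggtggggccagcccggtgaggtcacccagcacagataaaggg
Ngp, chr9:110419625-110419722, plus strand: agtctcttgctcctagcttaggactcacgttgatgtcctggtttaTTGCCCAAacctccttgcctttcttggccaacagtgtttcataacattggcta
Mmp8, chr9:7558365-7558428, plus strand: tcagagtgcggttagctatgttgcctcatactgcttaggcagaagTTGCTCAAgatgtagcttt
The PU.1 letters began 84 bases before the RefSeq start in Elane, 223 in Mpo, 94 in Prtn3 and 206 in Ctsg, all on the gene's strand. A match describes letters only. No binding was measured here.

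In what follows, 6 values in a row begin with the control, go on with 2DG, 2FF and the antibody alone, and end with the 2DG and the 2FF combination. The libraries held 8598 to 10412 cells and 61859753 to 73885214 UMIs each, and 51633 of 57078 cells had at least 250 genes and at most 5% mitochondrial UMIs. The control library stood apart: 3715 of its 9075 cells (40.9%) were gated as neutrophils, against 354 (4.60%), 537 (5.82%), 317 (3.60%), 310 (3.44%) and 427 (5.47%) in the treated libraries. The 8 gate markers were detected in 57.1% to 97.5% of gated cells, which the gate itself favors. In myeloid cells outside the gate, Csf3r was found in 22.9% to 40.8%, Trem1 in 29.3% to 43.3% and Il1r2 in 25.9% to 44.4%. The other markers lay at 0.465% to 7.26% there, apart from S100a8 (38.8%) and S100a9 (31.8%) in the control. In T cells, which should lack both, S100a8 was found in 20.4% of control cells and in 0.908% to 2.84% of treated cells. S100a9 was found in 26.6% and in 1.30% to 2.76%. The source of these UMIs, such as free RNA or doublets, was not tested. Of 56687 barcodes, 389 occurred in more than 1 library, and 4 of the 5656 among neutrophils did. With 1 mouse for each treatment there is no replicate and no test, intervals are 95% and cover counting error only, and a difference between treatments cannot be told apart from one between mice or libraries.

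Levels are given as CPM, the UMIs of a gene for every 1000000 UMIs of the gated cells of a library. The 4 azurophil genes were highest in the neutrophils of the 2DG mouse. Elane, Mpo and Ctsg were at or near 0 in those of the control, anti-PD-L1 and 2DG combination mice, and in the other libraries a handful of cells held nearly all of their UMIs. Elane had 1.40, 1297, 78.6, 0.745, 7.86 and 170 CPM, from 16, 10, 3, 1, 1 and 3 cells with a UMI. The 2DG library was the highest by far, and 5 of its cells held 90% of the Elane UMIs. In the 2FF and the 2FF combination libraries a single cell held 93.5% and 97.4%.

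Mpo had 0.339, 612, 66.5, 0.745, 0 and 106 CPM, from 6, 5, 3, 1, 0 and 2 cells. Ctsg had 0.339, 282, 28.8, 0, 0 and 19.1 CPM, from 4, 6, 1, 0, 0 and 1 cells. Both were highest with 2DG. Mpo, like Elane, was higher in the 2FF combination than with 2FF alone, whereas Ctsg was lower there, each from 1 to 3 cells. For the 310 neutrophils of the 2DG combination library, a count of 0 allows a level of up to 2.36 CPM and a share of up to 0.968% of cells with a UMI, which limits detection and not expression.

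Prtn3 departed from the other azurophil genes. Its levels were 15.2, 1015, 120.5, 12.7, 27.5 and 141 CPM, and it was found in 196, 17, 17, 11, 10 and 21 neutrophils, 3.17% to 5.28% of them in every library. Among T cells, whose gate limits pan-myeloid and neutrophil markers, it was found in 0% to 0.670%. Most of these neutrophils held 1 UMI (the median was 3 in the 2DG library and 1 in the others), so a thin layer of Prtn3 lay under the few cells that raised its level.

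**Figure D1:**
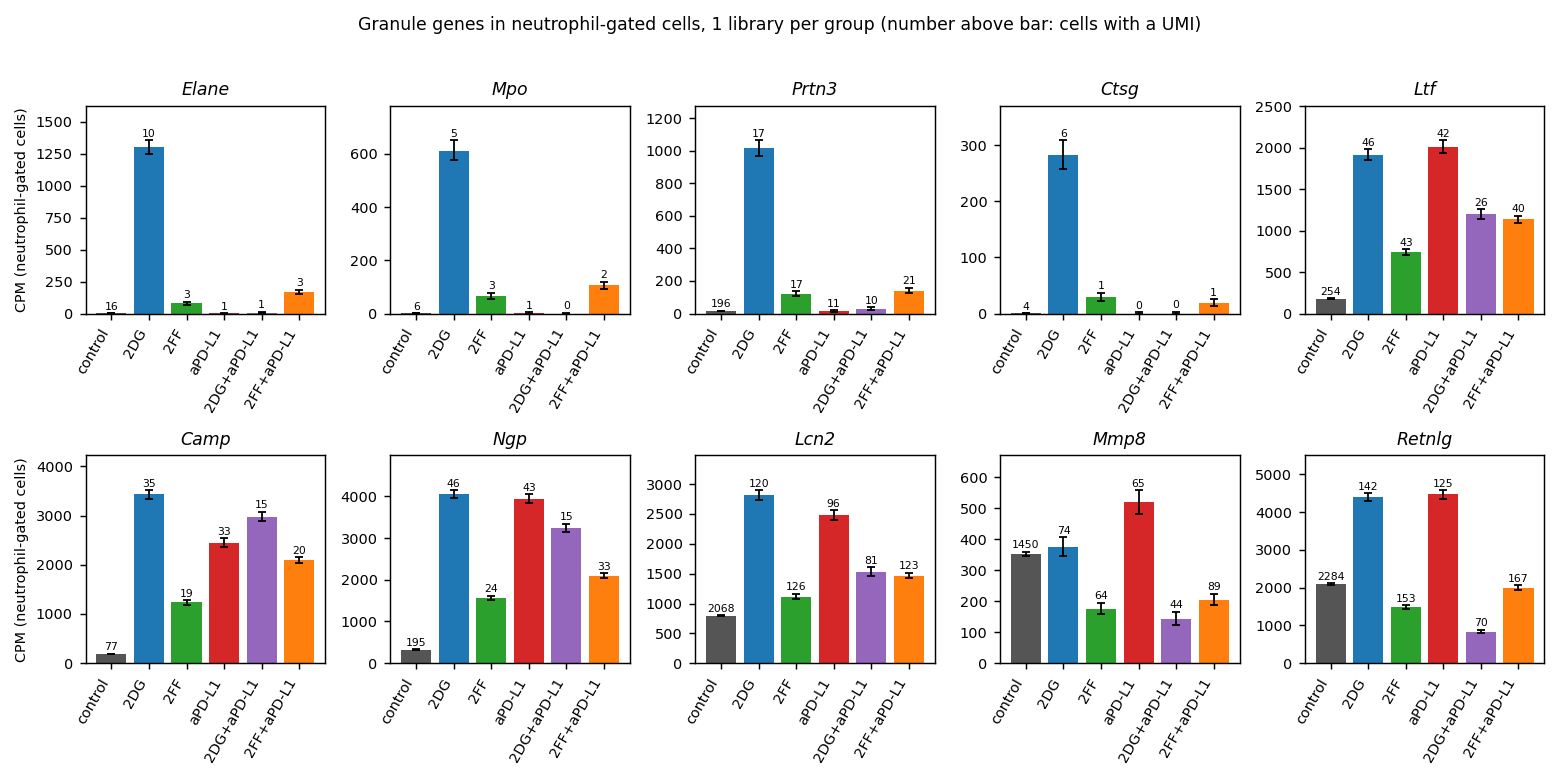
Levels of the 10 granule genes in neutrophil-gated cells. Each panel is 1 gene, with CPM on the vertical axis and 1 bar for each of the 6 libraries; lines are 95% Poisson intervals and the number above a bar is the count of cells with a UMI. The azurophil bars are high in the 2DG library with few cells (10 for Elane), whereas Ltf, Camp and Ngp are lowest in the control library.

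Relative to control, all 4 azurophil genes were higher than 2-fold in the 2DG neutrophils. Elane was 927-fold higher (counting interval 658 to 1351), Mpo 1805-fold (913 to 4192), Prtn3 66.9-fold (59.6 to 75.1) and Ctsg 832-fold (419 to 1939). Their summed level was 3206 against 17.3 CPM, a log2 ratio of 7.17 (7.06 to 7.29) after 5 CPM were added to both, which understates low genes. Without the single richest cell of each library it was 6.93, so the 2DG difference did not rest on 1 cell.

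In the 2FF neutrophils the azurophil sum was 294 CPM, a log2 ratio of 3.75 over control (3.60 to 3.91). That value rested on 1 cell, which held 91.5% of the UMIs, and without the richest cell it was 0.56. In the anti-PD-L1 neutrophils the sum was 14.2 CPM, a log2 ratio of -0.22 over control (-0.71 to 0.27). The 2FF combination sum was 435 CPM, a log2 ratio of 4.52 over anti-PD-L1 (4.04 to 5.01). Here too 1 cell held 94.7% of the UMIs. The ratio was 0.75 without the richest cell and 0.21 with possible doublets left out. The 2DG combination sum of 35.4 CPM gave 1.08 over anti-PD-L1 (0.47 to 1.68) and 0.24 without the richest cell, and was 0.51 with thinned cells. Whether the 2DG ratios with and without the antibody differ was not tested.

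The cells behind these levels were few enough to be counted. Over all gates, 16 of 51633 cells held at least 3 of the 4 azurophil genes: 2, 8, 1, 1, 0 and 4. Of them, 11 held 50 or more azurophil UMIs, 8 in the 2DG, 1 in the 2FF and 2 in the 2FF combination library. In the 2DG library these 8 cells held 87.5% of the azurophil UMIs of all its cells. They were large, with 13231 to 52539 UMIs over the 11 cells, against medians of 2646 to 4086 UMIs for neutrophils. In the richest cell, azurophil UMIs were 1290 of 39677, with 453 of Elane, 269 of Mpo, 323 of Prtn3 and 245 of Ctsg.

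All 11 cells expressed Mki67 or Top2a, genes of dividing cells, and all 11 expressed Stmn1 and Ms4a3, the latter a marker of granulocyte-monocyte progenitors. Kit, a progenitor receptor, was detected in 6 and Cd34 in 1. Camp was detected in 9 of the 11, Ngp in 8 and Lcn2 in 10, whereas Ltf was detected in 2, Mmp8 in 1 and Retnlg in 1. Csf3r was found in 9 and the chemokine receptor Cxcr2, which mature neutrophils carry, in 3. Most of the 11 also had more monocyte markers detected than macrophage or dendritic markers. Of the 8 cells in the 2DG library, 5 were in the neutrophil gate. After the 4 azurophil genes, the genes furthest above other neutrophils in the 16 cells, of which 9 were gated as neutrophils, 4 as other myeloid cells and 3 were unclassed, were Ms4a3 (65.6-fold, with 10 CPM added to both), Fcnb (52.3-fold), Nkg7 (30.4-fold), Hist1h1b (28.6-fold), Dut (22.7-fold) and Stmn1 (21.1-fold). Fcnb encodes a ficolin of granulocyte precursors, Hist1h1b a histone and Dut an enzyme of nucleotide metabolism in dividing cells. The cells were chosen by the azurophil genes, so the remaining genes describe them and are no test.

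Of the specific granule genes, Camp, Ngp, Ltf and Lcn2 had their lowest level in the control neutrophils and higher levels in all 5 treated libraries, and Mmp8 did not. Camp had 186, 3427, 1234, 2448, 2980 and 2095 CPM, from 77, 35, 19, 33, 15 and 20 cells. Ngp had 325, 4053, 1565, 3937, 3246 and 2095 CPM, and Ltf 178, 1910, 737, 2009, 1196 and 1136 CPM. For each of the 3 genes the control library was the lowest and the 2FF library the next, and no treated interval reached that of the control. These intervals treat UMIs as independent, although few cells held most of them.

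Lcn2 had 794, 2819, 1117, 2482, 1536 and 1469 CPM. It was lowest in the control by level, but the share of neutrophils with an Lcn2 UMI was highest there: 55.7%, 33.9%, 23.5%, 30.3%, 26.1% and 28.8%. After each cell was thinned to 1000 UMIs the shares were 31.4%, 23.4%, 14.9%, 22.0%, 15.7% and 15.9%, with the control still highest. Level and share went opposite ways, and 90% of the Lcn2 UMIs came from 1037 neutrophils in the control but from 15 to 35 in each treated library. In T cells, whose gate limits myeloid markers, the share was 0.0753% to 1.70%.

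The levels of Mmp8, the collagenase, were 352, 376, 176, 518, 143 and 204 CPM, highest with anti-PD-L1 and lowest with the 2DG combination. The control stood between them. The share of neutrophils with an Mmp8 UMI was highest in the control, 39.0% against 11.9% to 20.9%, and 19.1% against 6.45% to 14.7% after thinning.

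Retnlg had the most UMIs of the granule transcripts over the 6 libraries pooled, with 71688 of its 75030 UMIs (95.5%) in neutrophils. The control neutrophils held 49445 of them, and by level Ngp was above Retnlg with 2FF and with both combinations. Retnlg levels were 2096, 4398, 1483, 4469, 837 and 2002 CPM. The 2DG and anti-PD-L1 libraries were highest, and the library that received both was lowest. The share of positive cells was 61.5%, 40.1%, 28.5%, 39.4%, 22.6% and 39.1%, so here too the control was highest by share.

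Over control, 9 of the 10 granule genes were past 2-fold higher with 2DG and none lower, against 5.34% of 10622 genes higher and 4.76% lower (those whose UMIs in the pair of libraries summed to 50 or more). Mmp8 was the exception, at a log2 ratio of 0.09 (-0.02 to 0.21). With 2FF, 7 of 10 were past 2-fold higher and none lower, against 4.4% and 3.8% of 10659 genes, and Lcn2 (0.49), Retnlg (-0.50) and Mmp8 (-0.98) were within 2-fold. Of the 7, the 4 azurophil genes had 84.2% to 100% of their 2FF UMIs in 1 cell. With anti-PD-L1, 5 of the 7 with enough UMIs were past 2-fold higher and none lower, against 4.05% and 2.69% of 10539 genes. Those 5 were Camp (log2 ratio 3.68), Ngp (3.58), Ltf (3.46), Lcn2 (1.64) and Retnlg (1.09). The Retnlg ratios stood near 2-fold and rested on the cells rich in Camp and Ngp described below, without which they were 0.43 with 2DG and 0.01 with anti-PD-L1. These 3 comparisons share the control library, in which neutrophils were many. The median log2 ratio of the members tested was 3.90, 2.44 and 1.64, beside 0.12, 0.15 and 0.06 over all genes tested. Elane, Mpo and Ctsg had 33, 8 and 8 UMIs in the control neutrophils and reached 50 only through the 2DG or the 2FF library. With anti-PD-L1 they fell short and were left out. The filter thus favors higher values among the members in the 2DG and 2FF counts and medians.

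Over anti-PD-L1, the 2DG combination had none of 7 granule genes past 2-fold higher and 2 lower, against 1.74% and 1.24% of 5502 genes. The 2 were Retnlg, with a log2 ratio of -2.41 (-2.50 to -2.32), and Mmp8, with -1.82 (-2.05 to -1.59). The 2FF combination had 3 of 9 past 2-fold higher and 2 lower, against 1.64% and 1.01% of 6168 genes. The 3 were Elane (228-fold, counting interval 40.6 to 9018, over 1 UMI), Mpo (142-fold, 25.2 to 5627, over 1 UMI) and Prtn3 (11.1-fold, 6.84 to 19.3, over 17 UMIs), all resting on the single cell above. These 3 genes passed the filter only through the 2FF combination library. Here too the filter favors higher values among the members, in the count and in the median, so the share of all genes is no fair measure for them. Ctsg, with no UMI in the anti-PD-L1 neutrophils, was 8.56-fold above a floor of 3 counts, which is no lower bound. It had under 50 UMIs and was not among the 9, and all of its 44 UMIs lay in that same cell. The 2 lower were again Mmp8 (-1.32) and Retnlg (-1.16, or -0.64 without the cells rich in Camp and Ngp). Without those cells Mmp8 was 150 CPM with anti-PD-L1, 71.5 CPM with the 2DG combination and 135 CPM with the 2FF combination. Little of the Mmp8 difference of the 2FF combination then remained. The median of the members tested was -0.69 and -0.75, beside 0.07 and -0.01 over all genes. Both comparisons share the anti-PD-L1 library.

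**Figure D2:**
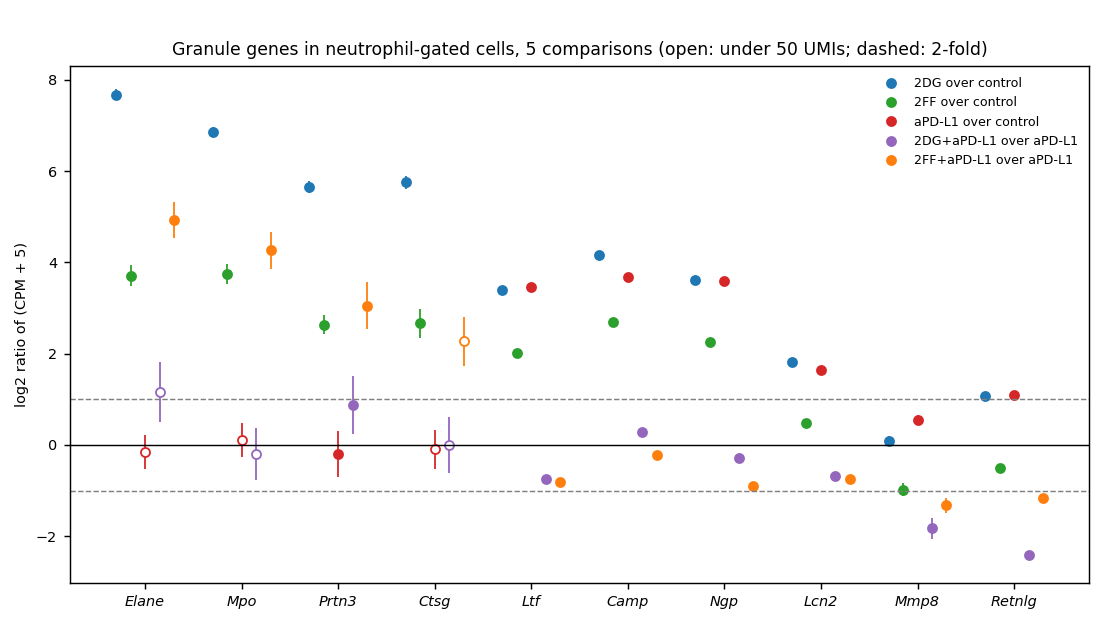
Log2 ratio of (CPM + 5) for the 10 granule genes in neutrophil-gated cells, with 1 point for each of 5 comparisons. Lines are 95% counting intervals, open points are genes under 50 UMIs in both libraries together and dashed lines mark 2-fold. Camp, Ngp and Ltf are past 2-fold in each comparison with control and in neither comparison with anti-PD-L1, while Retnlg and Mmp8 are past 2-fold lower in both comparisons with anti-PD-L1.

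Summed over the 5 specific genes, the level was 1835, 12585, 4829, 11394, 9100 and 6999 CPM. The log2 ratio over control was 2.77 (2.75 to 2.80) with 2DG, 1.39 (1.36 to 1.42) with 2FF and 2.63 (2.60 to 2.66) with anti-PD-L1. With every cell thinned to 1000 UMIs, which gives cells equal weight, these were 1.88, 0.76 and 2.02, so the 2FF value ended within 2-fold. Over anti-PD-L1 the ratio was -0.32 (-0.36 to -0.29) with 2DG and -0.70 (-0.73 to -0.67) with 2FF, both within 2-fold.

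These levels came from a small set of cells as well. Cells with 10 or more Camp and Ngp UMIs numbered 55, 35, 18, 32, 14 and 20 among neutrophils, 174 in all. They held 95.4% to 99.8% of the Ltf, Camp and Ngp UMIs of the neutrophils of a library. The choice by Camp and Ngp favors a high share of those 2 genes in advance. Ltf, which was not used in the choice, was at 17.2 CPM in the other neutrophils of the 6 libraries and at 7198 CPM in these cells. Their share was 1.48% of neutrophils in the control (1.12% to 1.92%), 9.89% with 2DG (6.98% to 13.5%), 3.35% with 2FF (2.00% to 5.25%), 10.1% with anti-PD-L1 (7.01% to 14.0%), 4.52% with the 2DG combination (2.49% to 7.46%) and 4.68% with the 2FF combination (2.88% to 7.14%). The control was lowest and the 2DG and anti-PD-L1 libraries highest.

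The order changed with the denominator. Over all cells that passed the filters, cells with 10 or more Camp and Ngp UMIs (63, 36, 18, 35, 14 and 23) were 0.694%, 0.467%, 0.195%, 0.398%, 0.155% and 0.295%, with the control highest. The remaining neutrophils numbered 3660, 319, 519, 285, 296 and 407. At this cutoff of 10 UMIs, the control library thus had higher shares of both kinds of cell among all cells. For the Camp- and Ngp-rich cells, its interval (0.534% to 0.887%) overlapped those with 2DG (0.328% to 0.646%) and anti-PD-L1 (0.277% to 0.553%). A count cutoff also favors deeper cells, and control neutrophils had a median of 4086 UMIs against 2646 to 3410 in treated libraries. Camp over all cells had 61.6, 106, 38.6, 59.2, 59.8 and 91.8 CPM, highest with 2DG. The excess of the control was larger for the Camp- and Ngp-low neutrophils. Shares of the cells of a tissue also move with every other cell type, and the part of each was not tested.

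**Figure D3:**
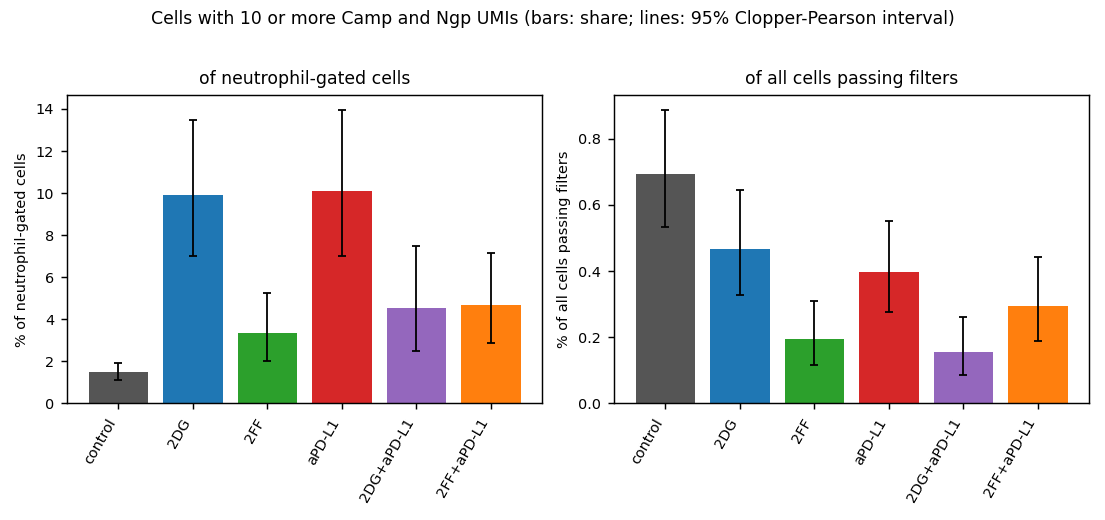
Share of cells with 10 or more Camp and Ngp UMIs in each of the 6 libraries, as a percent of neutrophil-gated cells (left) and of all cells that passed the filters (right). Bars start at 0 and lines are 95% Clopper-Pearson intervals; the control bar is the lowest on the left (1.48%) and the highest on the right (0.694%).

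All 174 cells had an Lcn2 UMI, 166 (95.4%) had Retnlg, 149 (85.6%) had Ltf and 131 (75.3%) had Mmp8, against 44.5%, 50.6%, 5.50% and 30.2% of the other neutrophils. The median depth was 9042.5 against 3643 UMIs, and a deeper cell shows more genes. As levels, Lcn2 was 9069 against 506 CPM, Retnlg 8719 against 1760 CPM and Mmp8 1103 against 276 CPM. Elane was found in 16 of the 174. Over all gates, 61 of 189 such cells (32.3%) held Mki67 or Top2a, against 7.24% of the other neutrophils.

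Outside these cells no treated library stood above the control in Lcn2 or Mmp8. Lcn2 was 573, 562, 224, 439, 180 and 206 CPM in the other neutrophils, and Mmp8 325, 210, 77.4, 150, 71.5 and 135 CPM. Retnlg was 1912, 2572, 796, 1919, 352 and 1226 CPM, higher than control in the 2DG library and all but level with it under anti-PD-L1. The T cells of the control also had the highest T cell levels of these genes, 3.04 CPM of Lcn2 and 3.91 CPM of Mmp8, far below the levels above.

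Across the 5660 neutrophils, the closest pairs were read from their Pearson correlation (log scale, as a description, since cells share libraries, depth and many zeros). Mpo with Ctsg (r = 0.93), Elane with Mpo (0.86) and Elane with Ctsg (0.85) were close, with Prtn3 more loosely attached (0.62 with Elane). Only 7, 9 and 8 cells held both genes of the first 3 pairs, and 27 held both Elane and Prtn3. Camp with Ngp (0.89), Ltf with Camp (0.84) and Ltf with Ngp (0.83) were close as well. Lcn2, Mmp8 and Retnlg correlated at 0.49 to 0.55 with each other, and Lcn2 at 0.40 to 0.50 with Ltf, Camp and Ngp, so it was not set apart from them. Elane and Retnlg, the ends of the maturation order, were at -0.04, with 11 cells that held both.

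**Figure D4:**
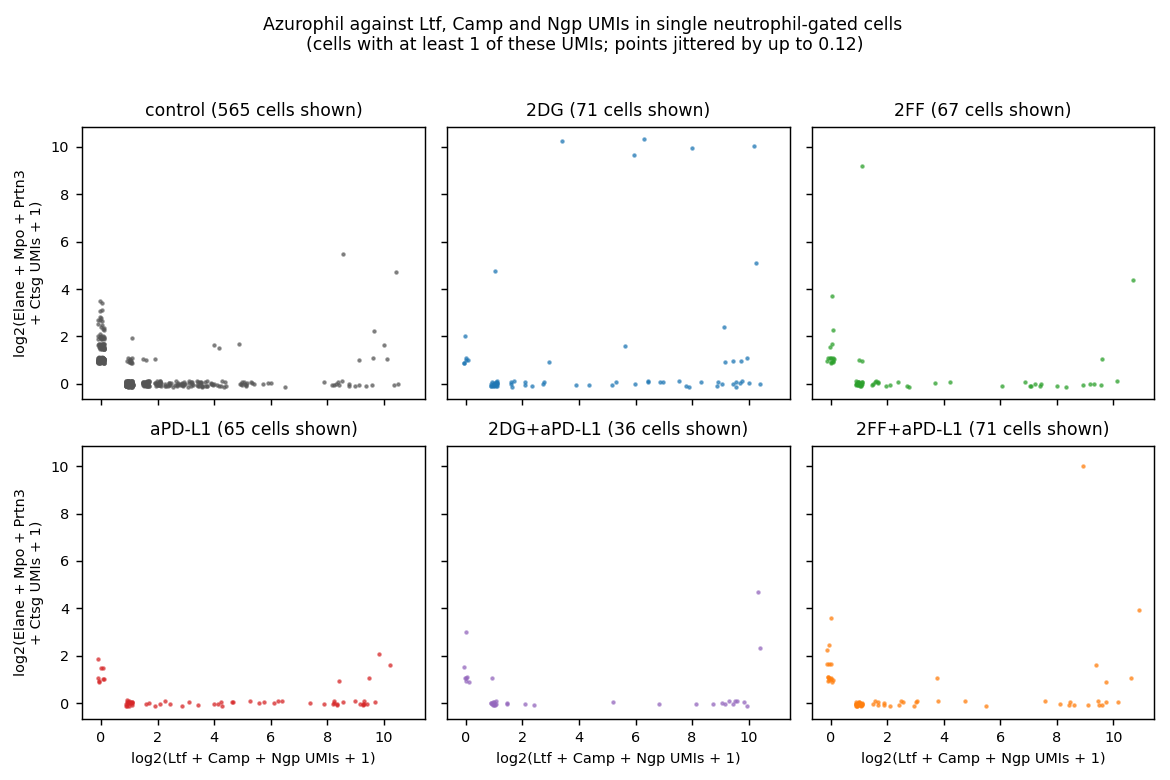
UMIs of the 4 azurophil genes (vertical, log2 of the sum + 1) against those of Ltf, Camp and Ngp (horizontal, log2 of the sum + 1) in single neutrophil-gated cells, with 1 panel for each library and 1 point for each cell that has at least 1 of these UMIs. Cells lie along both axes, and the points near the top are the few azurophil-rich cells, 5 of them in the 2DG panel and 1 in each of the 2 panels with 2FF.

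A list of 20 other genes of granules and granulocyte maturation was read beside the 10. Of the 18 with enough UMIs, 12 were past 2-fold higher with 2DG over control and 1 lower (Olfm4, -1.12), with the top values in Fcnb (4.73), Ms4a3 (4.55) and Serpinb1a (3.25). With 2FF, 8 of 18 were higher, led by Cebpe (1.72), Fcnb (1.52) and Mmp9 (1.50), and Wfdc21 (-1.47) and Chil3 (-1.10) were lower. With anti-PD-L1, 10 of 17 were higher and none lower, led by Ifitm6 (2.50), Cebpe (2.34), the transcription factor of the specific granule stage, and Serpinb1a (2.19). The list medians were 1.58, 0.75 and 1.24, beside 0.12, 0.15 and 0.06 over all genes tested. Of all genes, 5.34%, 4.4% and 4.05% were past 2-fold higher and 4.76%, 3.8% and 2.69% lower. Ms4a3, with 28 UMIs in the control, passed the filter with 2DG only through the 2DG library. The 16 cells with at least 3 azurophil genes held 489 Fcnb and 407 Ms4a3 UMIs, so these 2 genes are no separate support.

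Over anti-PD-L1, the 20-gene list was divided. With 2DG, Fcnb was higher (1.88) and Ifitm6 (-1.20) and Padi4 (-1.13) were lower among 17. With 2FF, Ms4a3 (2.17), Fcnb (1.68) and Olfm4 (1.19) were higher and Cd177 (-1.15) and Ifitm6 (-1.10) lower among 18. Ms4a3, Fcnb and Olfm4 had 4, 16 and 18 UMIs in the anti-PD-L1 neutrophils and passed the filter only through the combination libraries. Of the 71 Ms4a3 UMIs of the 2FF combination, 55 lay in its richest azurophil cell, so Ms4a3 is no separate support here either. The list medians were -0.25 and -0.22, beside 0.07 and -0.01 over all genes tested. Of all genes, 1.74% and 1.64% were past 2-fold higher and 1.24% and 1.01% lower. Fcnb, a gene of early granulocytes, was past 2-fold higher in all 4 comparisons that add a sugar analog, and no other gene of the list was. It was picked from the 20 after the values were seen. The comparisons reuse the control and anti-PD-L1 libraries and rest on 1 mouse for each treatment, so they are no independent repeats. Fcnb was just within 2-fold for anti-PD-L1 over control (0.98). Of the 16 cells with at least 3 azurophil genes, 12 held 489 Fcnb UMIs, and the anti-PD-L1 neutrophils held 16. None of those cells lay in the 2DG combination library, whose neutrophils held 73 Fcnb UMIs.

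Markers of other cells were also read in the gated neutrophils. The 6 progenitor and cycling markers (Kit, Cd34, Myb, Mki67, Top2a and Stmn1) summed to 45.4, 371, 113, 68.5, 157 and 172 CPM, with the 2DG library highest as for the azurophil genes. The 5 azurophil-rich cells in the 2DG neutrophil gate held part of these UMIs, so this likeness is no separate support. The 8 mononuclear markers summed to 1252, 1331, 2980, 1790, 2346 and 1671 CPM, highest with 2FF. T cell markers summed to 6.40 to 43.7 CPM, NK markers to 1.10 to 118 CPM, B cell markers to 1.61 to 10.7 CPM and keratins to 1.57 to 6.05 CPM. Of the 6 mast cell and basophil markers, 3 to 6 were at 0 in each library. The part of these in the differences was not tested, apart from the values with possible doublets left out, which are given with the other settings. Over 29 combinations of library and cell class, the gene most like the azurophil sum among 17926 was Ms4a3 (Pearson r = 0.92 of log2 CPM + 5), followed by Klhl23 (0.87), Capns2 (0.86), Gm15419 (0.86) and D7Ertd128e (0.85). Most like the specific sum were Rnf24 (0.94), Slc40a1 (0.92), Entpd3 (0.92), F3 (0.91) and Dhrs9 (0.91).

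Not all granule transcripts lay in neutrophils. Over the 6 libraries pooled, neutrophils held 91.6% to 95.5% of the UMIs of Ltf, Camp, Ngp, Lcn2 and Retnlg. They held 86.7% of those of Elane, 81.3% of Ctsg and 68.2% of Mpo, but 66.4% of Mmp8 and 33.4% of Prtn3. By library, the share of Mmp8 ran from 31.0% (2DG combination) to 74.1% (control), and that of Prtn3 from 2.80% (anti-PD-L1) to 60.1% (2DG). Over the pooled libraries, other myeloid cells held 56.5% of the Prtn3 and 30.7% of the Mmp8 UMIs. These cells were gated by 6 pan-myeloid markers and named macrophage, monocyte or dendritic by the markers most often detected.

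Prtn3 was found in the macrophages and monocytes of every mouse. Its level in macrophages was 17.2, 29.0, 26.2, 26.7, 31.6 and 44.7 CPM, from 7.40% to 11.0% of cells. In monocytes it was 19.3, 20.1, 24.0, 13.9, 12.4 and 21.3 CPM, from 5.94% to 12.6% of cells. In the T cells of the same libraries it was 0 to 1.41 CPM, but the T cell gate limits pan-myeloid markers and so keeps myeloid RNA low in advance. In dendritic cells, which were gated as other myeloid cells, it was 0.322 to 2.00 CPM. That was below macrophages and monocytes beyond counting error. Control macrophages had the lowest level and the 2FF combination macrophages the highest, whose intervals (15.0 to 19.6 and 41.3 to 48.4 CPM) did not overlap. These intervals treat UMIs as independent, and 5 and 18 macrophages held 10 or more. By share of positive cells the intervals overlapped (5.92% to 9.11% and 8.95% to 12.2%). The share of all genes that separate so was not computed. After thinning to 1000 UMIs, the share of macrophages was 1.28% in the control and 1.88% to 2.64% in the treated libraries.

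Mmp8 outside neutrophils was highest in the monocytes of every library, and the control stood apart. In monocytes it had 88.0 CPM (84.1 to 92.0) in the control and 18.9, 25.1, 25.4, 20.8 and 29.1 CPM in the treated libraries. The share of monocytes was 26.0% in the control and 8.71% to 12.5% in the others, and 6.76% against 1.67% to 2.42% after thinning. In macrophages it was 30.8 CPM in the control and 1.95 to 7.13 CPM in the others. Control T cells had 3.91 CPM of Mmp8 and 5.22 CPM of Retnlg, and control monocytes 88.0 CPM of Mmp8 and 8.29 CPM of Retnlg. Control neutrophils had 352 CPM of Mmp8 and 2096 CPM of Retnlg. Mmp8 was also higher in control myeloid cells without a name (73.1 against 4.05 to 11.6 CPM) and in unclassed control cells (56.0 against 2.22 to 9.76 CPM). Neutrophil genes moved with it: S100a8 was found in 38.8% of the other myeloid cells of the control and in 3.30% to 5.50% of those of treated libraries, S100a9 in 31.8% against 1.35% to 3.97%, and Lcn2 was 33.0 against 1.98 to 9.18 CPM in monocytes. Their part in the Mmp8 difference was not tested.

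Mpo in macrophages went the other way. A single UMI in 1095 control macrophages gave 0.0783 CPM (0.00198 to 0.436), whereas the treated libraries had 4.59, 2.50, 2.01, 2.92 and 2.58 CPM from 10 to 28 cells each. The CPM intervals of all 5 treated libraries lay above that of the control. By share of positive cells, the control interval (0.00231% to 0.508%) overlapped that with anti-PD-L1 (0.426% to 1.63%). How many of all genes separate the macrophages of these libraries in this way was not computed. In T cells, whose gate limits myeloid markers, Mpo was 0 to 0.720 CPM. Dendritic cells, with 161 to 284 cells a library, had 0 to 2.71 CPM. Their intervals overlapped those of macrophages in the control and in the 3 libraries with anti-PD-L1. The level is low throughout, with 0.887% to 2.04% of treated macrophages positive.

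**Figure D5:**
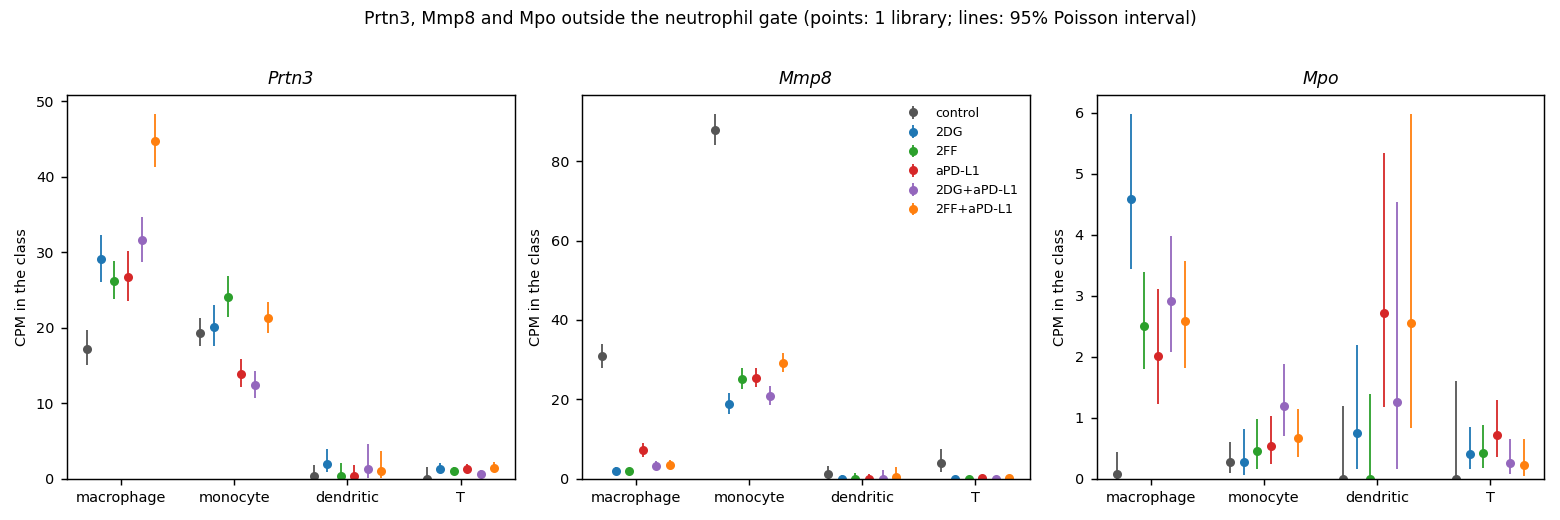
Prtn3, Mmp8 and Mpo in macrophages, monocytes, dendritic cells and T cells, in CPM of the class, with 1 point for each library and lines for 95% Poisson intervals. Prtn3 lies in macrophages and monocytes of all 6 libraries, Mmp8 in monocytes with the control at 88.0 CPM, and Mpo in the macrophages of the treated libraries, with wide intervals in dendritic cells.

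Ltf and Lcn2, which epithelia also make, were present in keratin-positive cells, of which there were 0, 11, 21, 2, 10 and 17. In the 2FF library 7 of the 21 cells held 187 UMIs of Ltf, 112 of them in 1 cell, and 8 held 203 of Lcn2, 92 of them in 1 cell. In the 2FF combination library 5 of 17 cells held 237 UMIs of Lcn2, of which 1 cell held 224. Camp, Elane, Mpo and Ctsg had no UMI in any of the 61 keratin-positive cells.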

How the data were processed

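Droplet-based 3′ RNA sequencing libraries (10x Genomics, v3.1 kit) of 6 mice were analysed, grouped by the treatment in the sample labels. The deposited values were UMI counts without normalization, which per the file headers and the methods were made with Cell Ranger 7.0.0 (STAR, mm10). The methods' limits (250 genes, 5% mitochondrial UMIs) were applied here.

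Each cell was gated by fixed markers, never by a granule gene: neutrophils needed 4 of 8 (S100a8, S100a9, Csf3r, Cxcr2, Hdc, G0s2, Trem1 and Il1r2), more of these than of 8 mononuclear markers, and fewer than 2 each of T, B and keratin markers; other myeloid cells needed 3 of 6 pan-myeloid, T cells 2 of 5 and keratin-positive cells 3 of 5 markers. No doublet caller was run; the gates limited but did not remove cells with markers of several classes, and leaving out possible doublets was an alternative. T cells also had to show fewer than 3 pan-myeloid markers and fewer than 2 neutrophil markers other than S100a8 and S100a9. T cells with stray myeloid RNA were thus partly removed in advance. UMIs were summed per class and library. Sums have exact Poisson intervals, shares Clopper-Pearson intervals and log2 ratios of (CPM + 5) normal counting intervals, all 95%, with 3 counts as the floor. Past 2-fold was read where both libraries together held 50 or more UMIs of a gene. The log2 ratio was tested on simulated data. Thinned shares are expectations over all draws of 1000 UMIs, leaving out shallower cells. Named genes are the 10 members, the markers, the 3 highest and lowest of the 20-gene list, the 5 genes most like each group and the 10 leading genes of azurophil-rich cells. The members, gene lists and gates were chosen with earlier results of these data known. The cells with 10 or more Camp and Ngp UMIs, and the searched motifs, were chosen after values were seen. Python 3.11.15, numpy 2.4.6, scipy 1.17.1 and pandas 2.3.3 were used.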

Additional observations from a re-analysis of the deposited data

Results flagged for a closer look

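The level of Retnlg moved in opposite directions with 2DG depending on anti-PD-L1: the log2 ratio in neutrophils was 1.07 for 2DG over control and -2.41 for 2DG plus anti-PD-L1 relative to the antibody alone, both past 2-fold. The share of neutrophils with a Retnlg UMI was lower with 2DG in both, 40.1% against 61.5% and 22.6% against 39.4%. With 1 mouse for each treatment the difference between the 2 ratios was not tested. In alternatives chosen after seeing the data (another gate, the richest cell or possible doublets left out, thinned cells, Camp- and Ngp-rich cells left out), the first ratio ran from 0.43 to 1.01 and was past 2-fold in 2 of 6, and the second from -2.73 to -2.21 and was past 2-fold in 6 of 6.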

How the results depend on the processing

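The 10 summed ratios were recomputed under 10 alternatives each. Of the 100 values, 99 kept the sign, 92 kept the side of 2-fold and 51 stayed within the counting interval. The combinations of 2DG or 2FF with anti-PD-L1 are relative to the antibody alone. Settings are given for the specific genes and then the azurophil genes, as log2 ratios. The 49 values that left the counting interval are listed by setting, so a ratio not listed for a setting stayed within it. This includes the azurophil ratio of 2DG over control with possible doublets left out. With a gate of 5 markers, the specific ratio was 2.71 for 2DG, 1.33 for 2FF and 2.73 for anti-PD-L1 over control and -0.45 for the 2DG combination, and the azurophil ratio 7.34 for 2DG and 3.91 for 2FF. With a gate of 3 markers it was 2.70 (2DG), 1.36 (2FF), -0.71 (2DG combination) and -0.76 (2FF combination), and azurophil 7.01 (2DG). Without the richest cell, it was 2.74, 1.18, 2.57, -0.38 and -0.78 for the 5 comparisons in the same order, and azurophil 6.93 (2DG), 0.56 (2FF), 0.24 (2DG combination) and 0.75 (2FF combination), the last 3 now within 2-fold because 1 cell was removed. Thinned to 1000 UMIs, it was 1.88, 0.76 (within 2-fold), 2.02, -0.64 and -0.99, and azurophil 4.76 (2DG), 2.67 (2FF) and 2.04 (2FF combination). Centred on the median of all genes, it was 2.65, 1.24, 2.57 and -0.40 (2DG combination), and azurophil 7.05 (2DG). With possible doublets left out, it was 2.50, 1.88, 2.39 and -0.37 (2DG combination), and azurophil 5.88 (2FF), 0.57 (anti-PD-L1, which turned from -0.22) and 0.21 (2FF combination, from 4.52). Without the member with the most UMIs, it was 3.22, 1.83, 3.09 and -0.60 (2FF combination), and azurophil 6.52, 4.66 and 3.88 (2FF combination). The azurophil ratio of the 2DG combination, 1.08, also ended within 2-fold when thinned (0.51) and, barely, in 2 further settings. With 1 CPM added, azurophil was 7.46 (2DG) and 4.02 (2FF). Where no construction is named, the cause was not tested.

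Genes past 2-fold over anti-PD-L1 numbered 164 with 2DG and 163 with 2FF at 50 UMIs, 438 and 337 with no filter beyond 1 UMI and 42 and 61 at 200 UMIs. Requiring 2 UMIs of each gene left 0 of 2 control, 0 of 1 anti-PD-L1 and 2 of 4 2FF combination cells with 3 azurophil genes. Azurophil UMIs were found in 288 neutrophils in all, most with 1 UMI. In the 2DG, 2FF and 2FF combination libraries the levels rest on the few azurophil-rich cells. Both limit every statement on these genes. Of the 288 neutrophils, 272 held Prtn3, whereas Elane was found in 34, Mpo in 17 and Ctsg in 12. No paired analysis was possible because each group is 1 sample without a replicate number.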
